A study of Homo sapiens with 6 samples.

Results

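The histone deacetylase family was followed in A549 cells depleted of BAP18. Its members were the rows of the count table named HDAC1, HDAC2, HDAC3, HDAC4, HDAC5, HDAC6, HDAC7, HDAC8, HDAC9 and HDAC11, which made up 10 of the 35474 genes in the table. All 10 passed the filter on low counts, which left 20776 genes for testing. A549 cells come from a human lung adenocarcinoma, and BAP18, encoded by C17orf49, is a subunit of chromatin remodeling and histone methyltransferase complexes. The siBAP18 group received siRNA against BAP18 and the siCtrl group received non-specific siRNA. RNA was taken 48 h after transfection from 3 cultures per group, described as biological replicates, all of this 1 line. The study asked which pathways BAP18 regulates in non-small cell lung cancer, and here the question was how the deacetylase genes differed between the groups.

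Histone deacetylases remove acetyl groups from lysines of histones and other proteins, which is usually linked to compact chromatin and lower transcription. Class I enzymes work mainly in the nucleus as the catalytic subunits of corepressor complexes. Class IIa enzymes have weak catalytic activity, bind MEF2 transcription factors and shuttle between nucleus and cytoplasm under the control of kinases and 14-3-3 proteins, whereas class IIb HDAC6 is largely cytoplasmic and HDAC11 is the only class IV enzyme.

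The libraries held between 42094524 and 56548620 counts. C17orf49 had 743, 751 and 705 counts in siCtrl and 120, 137 and 108 counts in siBAP18, a log2 fold change of −2.65 ± 0.111 (SE, n = 3 per group). All 12 epithelial and A549 markers were detected, with a summed level of 42005 to 43296 CPM, counts scaled to the size of the library, in siCtrl and 29718 to 31638 CPM in siBAP18, and 10 of them fell. Among 10 markers of other cell types, PTPRC, CD3E and DCN had no row in the table used here, and the other 7 summed to 77.0 to 80.9 CPM in siCtrl and 129 to 162 CPM in siBAP18, most of it CD68. All 12 proliferation markers fell, their sum moving from between 1691 and 1741 CPM to between 876 and 970 CPM. The mitochondrial share of counts was 6.86% to 7.43% in siCtrl and 5.27% to 6.14% in siBAP18, without overlap. These shifts moved with every difference given here, and their part in the deacetylase differences was not tested. In bulk RNA, a change in every cell and a change in the share of cells cannot be told apart.

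After BAP18 depletion, 6 of the 10 members rose (HDAC1, HDAC3, HDAC5, HDAC7, HDAC9 and HDAC11), 2 fell (HDAC2 and HDAC6), and HDAC4 and HDAC8 did not pass the test. HDAC9 stood apart with an 8.24-fold rise, while the other called members moved by between −15.8% (HDAC2) and 57.8% (HDAC5). Calls rest on an adjusted p under 0.05 from edgeR's quasi-likelihood test, adjusted by Benjamini-Hochberg over all genes tested. By the same rule 24.5% of all genes rose, 25.1% fell and 49.6% were called in either direction. Among the 8625 genes at least as abundant as HDAC9, the least abundant member, 33.3% rose and 33.0% fell. Abundance was averaged over both groups, so this cut was set largely by the siBAP18 level of HDAC9. The 3 libraries of a group did not overlap those of the other for 9 of the 10 members, against 56.6% of all genes tested. That share includes genes of low counts, and none was taken for the more abundant genes alone. The median log2 fold change of the members was 0.26, against 0.00 over all genes tested.

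**Figure D1:**
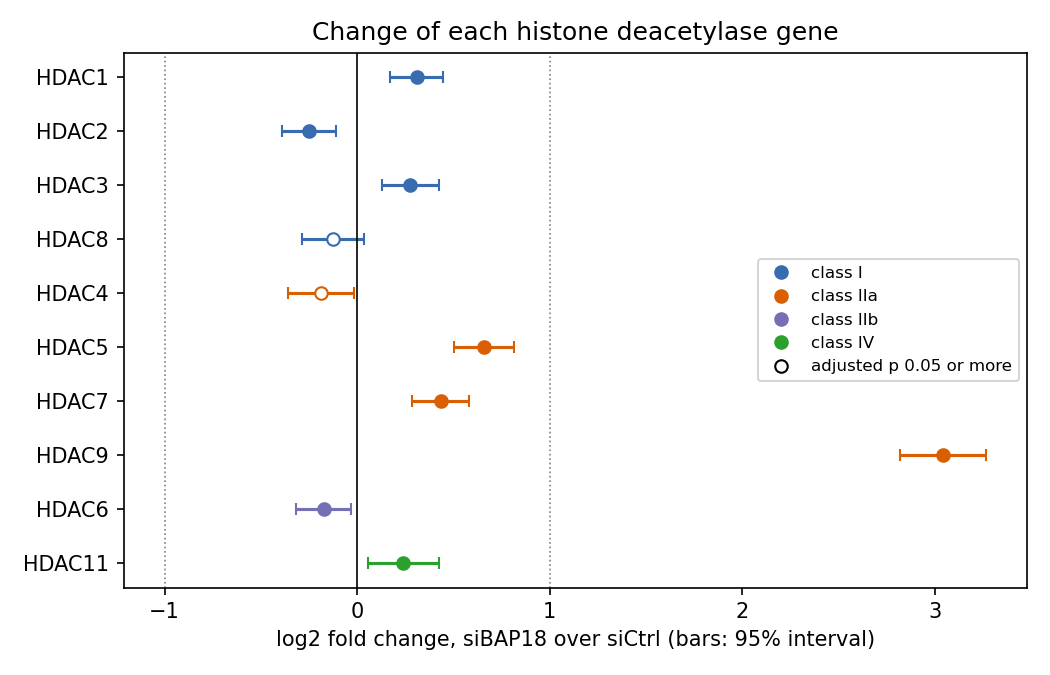
Log2 fold change of each member in siBAP18 over siCtrl (x axis) with its 95% interval, coloured by class, with open points where the adjusted p was 0.05 or more and dotted lines at 2-fold. HDAC9 lies at 3.04, past the line, and every other member lies between −0.25 and 0.66.

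Levels were compared between genes per length, as deposited RPKM (reads scaled by gene length and library size). The listed length of a member covers all its annotated exons, with 15461 bases for HDAC2 and 3963 for HDAC1. The order of members and their shares thus depend on which transcripts the cells make, which gene counts do not show. HDAC1 had the highest level in both groups, at 24.7 ± 0.519 RPKM in siCtrl and 30.6 ± 1.01 RPKM in siBAP18 (SD, n = 3). In siCtrl the order of RPKM levels then ran HDAC2, HDAC5, HDAC3, HDAC8, HDAC6, HDAC7, HDAC11, HDAC4 and HDAC9, and of the neighbours in it only HDAC3 and HDAC8 overlapped between libraries. In siBAP18 it ran HDAC5, HDAC3, HDAC2, HDAC7, HDAC8, HDAC6, HDAC11, HDAC9 and HDAC4 after HDAC1, with overlaps between HDAC3 and HDAC2, between HDAC7 and HDAC8, and between HDAC9 and HDAC4. HDAC5 thus moved past HDAC2 in mean RPKM level, and HDAC9 went from the lowest place to a level that overlapped that of HDAC4. The coefficient of variation of CPM over 3 libraries was 3.82% to 11.0% for the members in siBAP18 and 1.06% to 8.94% in siCtrl, higher in siBAP18 for 10 of 10 members and for 65.3% of all genes tested. The siBAP18 libraries as a whole differed more from each other, with a chi-square of their counts per degree of freedom of 11.0 to 25.8 for pairs of libraries, against 4.17 to 4.87 in siCtrl.

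**Figure D2:**
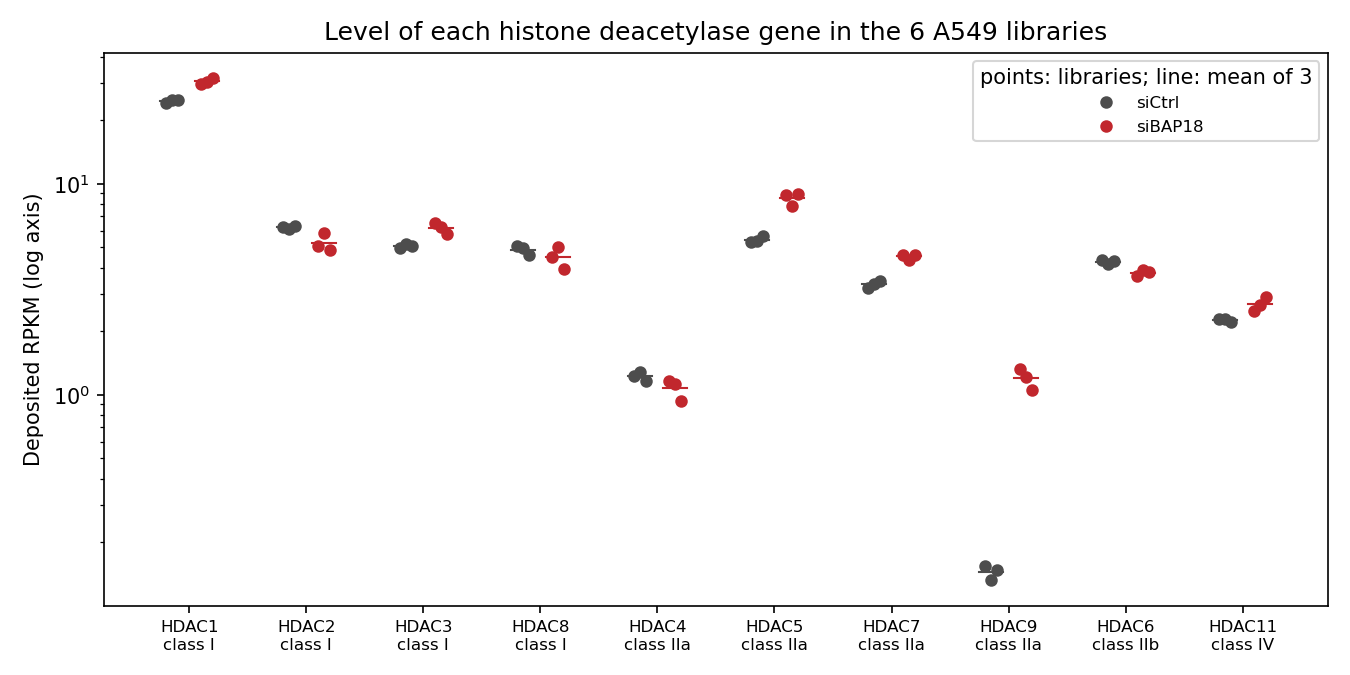
Deposited RPKM (y axis, log scale) of each member in the 3 siCtrl and 3 siBAP18 libraries, with points for libraries and lines for group means. The HDAC9 libraries lie near 0.144 RPKM in siCtrl and near 1.20 RPKM in siBAP18, and HDAC1 lies above all other members in both groups.

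HDAC9 is a class IIa member best known from muscle, brain and immune cells, where it binds MEF2 factors. Its gene lies on the plus strand of chromosome 7 from 18086949 to 19002416 (GRCh38). RefSeq starts lay far apart along it, and the windows around 2 of them, each 250 bases before and 50 bases after a start of RefSeq on GRCh38.p14, are shown because they differ in base composition and in the motifs they hold. Capitals mark motif matches on either strand.
HDAC9 chr7:18086575-18086874, plus strand: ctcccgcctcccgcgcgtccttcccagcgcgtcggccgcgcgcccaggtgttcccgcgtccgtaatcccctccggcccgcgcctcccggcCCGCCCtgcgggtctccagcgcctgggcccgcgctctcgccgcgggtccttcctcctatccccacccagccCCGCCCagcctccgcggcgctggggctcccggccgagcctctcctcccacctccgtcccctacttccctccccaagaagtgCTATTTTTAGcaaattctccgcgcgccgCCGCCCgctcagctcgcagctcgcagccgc
HDAC9 chr7:18495460-18495759, plus strand: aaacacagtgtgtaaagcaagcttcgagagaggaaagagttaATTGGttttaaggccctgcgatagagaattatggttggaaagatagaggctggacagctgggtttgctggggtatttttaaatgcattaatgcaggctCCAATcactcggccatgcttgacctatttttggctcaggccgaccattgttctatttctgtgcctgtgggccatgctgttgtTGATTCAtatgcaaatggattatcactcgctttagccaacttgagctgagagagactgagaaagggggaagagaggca

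The upstream HDAC9 window was 75.0% GC with 41 CpG, and the window far inside the gene was 45.3% GC with 5 CpG, against medians of 58.7% GC and 14 CpG over 35116 RefSeq promoters. The upstream window held a match to the MEF2 motif and 3 GC boxes (GGGCGG). The inner window held TGATTCA and 2 CCAAT boxes. TGATTCA matched the letters TGANTCA, a loose form of the AP-1 motif with any base at the centre, and is not taken here as an AP-1 site. Among all promoters, the MEF2 motif was in 2.73%, TGANTCA in 7.71%, GC boxes in 45.0% and CCAAT in 34.6%. HDAC9 was the only one of the 9 members with a promoter in the RefSeq table (all but HDAC5) to hold the MEF2 motif or TGANTCA. HDAC9 and HDAC4 had 5 windows each, HDAC6 had 3 and the other members 1, so more sequence was searched for HDAC9 than for most members, and the shares over all promoters are per window. Gene counts do not tell which start was used.

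For HDAC9 the reads counted in siCtrl were 139, 102 and 117, and in siBAP18 1209, 1154 and 745. As CPM these were 2.61, 2.19 and 2.50 in siCtrl and 22.2, 19.8 and 18.4 in siBAP18. Every siBAP18 library lay far above every siCtrl library, and the lowest siBAP18 count came from the library with the smallest total. The log2 fold change was 3.04 ± 0.109 (SE, 95% interval 2.82 to 3.27, adjusted p = 2.80e-17, the same edgeR test). It was the only member to rise over 2-fold, as 4.72% of all genes did. Of 20776 genes, 114 had a larger log2 fold change than HDAC9. Its mean RPKM level rose from 0.144 ± 0.0115 to 1.20 ± 0.140 (SD, n = 3), which overlapped no siCtrl level of the other members but that of HDAC4 (1.22 ± 0.0549 RPKM). With any 1 library left out, its log2 fold change was between 2.97 and 3.10, while limma on log2(RPKM + 1), a scale that understates changes of low genes, gave 0.94.

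HDAC5, HDAC7 and HDAC4, the other class IIa members, did not share 1 direction. HDAC5, a repressor of MEF2 targets (chromosome 17, 44076746 to 44123702, minus strand), had 40.6, 40.2 and 43.3 CPM in siCtrl and 66.9, 58.1 and 71.0 CPM in siBAP18. All siBAP18 libraries lay above all siCtrl libraries. Its log2 fold change was 0.66 ± 0.0753 (SE, adjusted p = 6.75e-08, the same edgeR test), the largest after that of HDAC9 among the members.

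HDAC7, known for roles in endothelial cells and lymphocytes (chromosome 12, 47782722 to 47833132, minus strand), had 32.1, 33.0 and 34.6 CPM in siCtrl and 45.5, 42.0 and 47.3 CPM in siBAP18, again without overlap. Its log2 fold change was 0.43 ± 0.0710 (SE, adjusted p = 1.46e-05, the same edgeR test). The gene shares exon sequence with SLC48A1 on the opposite strand, which averaged 1402 counts in siCtrl and 1322 in siBAP18 (log2 fold change −0.13, adjusted p = 0.219, edgeR). The libraries kept strand, but whether counting used it is not given in the sources used here. HDAC2, HDAC3, HDAC4 and HDAC11 also share exon sequence with rows on the opposite strand, the most abundant being AC008781.7 beside HDAC3, with a mean of 178 counts in siCtrl and 222 in siBAP18 (log2 fold change 0.24, adjusted p = 0.163, edgeR).

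HDAC4, which controls growth plate cartilage and muscle genes (chromosome 2, 239048168 to 239401654, minus strand), had 16.5, 16.9 and 15.7 CPM in siCtrl and 15.4, 14.6 and 13.0 CPM in siBAP18. The siBAP18 libraries all lay below the siCtrl libraries, by a small margin. The log2 fold change was −0.19 ± 0.0836 (SE, 95% interval −0.36 to −0.02) with an adjusted p of 0.0657 in the same edgeR test, so it was not called. It was called at an adjusted p of 0.0488 without siBAP18 replicate 1 (log2 fold change −0.24) and of 0.0400 with a replicate block, both in edgeR. The other 12 of 14 alternatives left it uncalled, and without siBAP18 replicate 3 it was at −0.12 (adjusted p = 0.185, edgeR).

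HDAC1 and HDAC2, close paralogs that serve as catalytic subunits of the SIN3, NuRD and CoREST complexes, moved in opposite directions. HDAC1 (chromosome 1, 32292086 to 32333635, plus strand) had 96.2, 97.7 and 99.9 CPM in siCtrl and 117, 117 and 131 CPM in siBAP18. Its siBAP18 libraries all lay above its siCtrl libraries, with the third the highest. The log2 fold change was 0.31 ± 0.0672 (SE, adjusted p = 4.32e-04, the same edgeR test). The related row HDAC1P2, a pseudogene, had between 0 and 8 counts in a library.

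HDAC2 (chromosome 6, 113933028 to 114011308, minus strand) had 97.3, 93.7 and 97.8 CPM in siCtrl and 77.9, 87.6 and 77.6 CPM in siBAP18. The siBAP18 libraries all lay lower, with the second nearest to siCtrl. The log2 fold change was −0.25 ± 0.0682 (SE, adjusted p = 0.00373, the same edgeR test). In limma on log2(RPKM + 0.1) the adjusted p was 0.0535. In siCtrl the mean CPM of HDAC2 and HDAC1 were close, at 96.3 and 98.0. Per kilobase of listed length, HDAC2 went from 0.252 of the HDAC1 level in siCtrl to 0.172 in siBAP18. The log2 ratio of HDAC2 to HDAC1, from counts per kilobase within each library, was −1.99 ± 0.0382 in siCtrl and −2.55 ± 0.169 in siBAP18 (SD, n = 3). The 3 siBAP18 ratios all lay below the 3 siCtrl ratios.

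HDAC2 was also the only member whose longest annotated 3′ UTR (GENCODE 29) held a 7-base match to the seed, guide bases 2 to 8, of each of 3 BAP18 siRNAs that the study's methods name. HDAC2 also had the longest such 3′ UTR of the members, at 8030 bases against 591 to 6354. Matches to all 3 seeds were held by 0.677% of 18758 genes, and by 50 of the 349 genes (14.3%) whose 3′ UTR was at least as long as that of HDAC2. Which of the siRNAs the sequenced cultures received is not stated. The HDAC2 sites are shown with the seed match in capitals, as transcript letters in DNA form.
HDAC2, siBAP18#1 seed match: atgcactggaAATCACAtatatgggtc
HDAC2, siBAP18#2 seed match: agttgacccaAAGATTCtcaaaattga
HDAC2, siBAP18#3 seed match: gtgacaccaaACTCAACtataaaagat

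The siBAP18#1 seed word AATCACA was in 13.1% of 18758 genes and in 3 members, HDAC2, HDAC8 and HDAC9, the last with 4 sites. The siBAP18#2 word AAGATTC was in 10.2% of genes and in HDAC2 and HDAC9. The siBAP18#3 word ACTCAAC was in 6.53% of genes and in HDAC2 alone. Of these members HDAC2 fell, HDAC9 rose and HDAC8 was not called, and the part of seed matches in the HDAC differences was not tested.

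HDAC3, the catalytic subunit of the NCoR/SMRT corepressors (chromosome 5, 141620876 to 141636870, minus strand), had 23.3, 23.7 and 23.8 CPM in siCtrl and 29.8, 27.9 and 27.9 CPM in siBAP18. The groups did not overlap. HDAC3 thus had a log2 fold change of 0.28 ± 0.0710 (SE, adjusted p = 0.00212, the same edgeR test).

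HDAC8, which deacetylates the cohesin subunit SMC3 (chromosome X, 72329516 to 72573103, minus strand), had 27.6, 26.4 and 24.9 CPM in siCtrl and 23.9, 26.2 and 22.1 CPM in siBAP18. It was the only member whose groups overlapped, through siBAP18 replicate 2. The log2 fold change was −0.13 (95% interval −0.29 to 0.03) with an adjusted p of 0.189 in the same edgeR test. Without siBAP18 replicate 2 it was −0.19 with an adjusted p of 0.0373 in edgeR. The other 13 of 14 alternatives left HDAC8 uncalled, among them leaving out siBAP18 replicate 3 (log2 fold change −0.066, adjusted p = 0.452, edgeR).

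HDAC6 deacetylates tubulin and HSP90 and binds ubiquitin, and its gene lies on the X chromosome from 48801377 to 48824982 on the plus strand. It had 45.6, 43.1 and 45.0 CPM in siCtrl and 37.8, 39.4 and 41.3 CPM in siBAP18. The groups did not overlap, but the gap between the highest siBAP18 and the lowest siCtrl library was narrow. This was a log2 fold change of −0.17 ± 0.0685 (SE, adjusted p = 0.0371, the same edgeR test). The call was lost in 7 of 14 alternatives, among them leaving out siCtrl replicate 1, 2 or 3 (adjusted p = 0.137, 0.0565 and 0.116, edgeR) or siBAP18 replicate 1 (log2 fold change −0.14, adjusted p = 0.172, edgeR).

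HDAC11, which also removes fatty acyl groups from lysine, is encoded on chromosome 3 from 13479724 to 13506424 on the plus strand. It had 12.2, 12.0 and 11.8 CPM in siCtrl and 13.1, 13.6 and 16.0 CPM in siBAP18. All siBAP18 libraries lay above siCtrl, and the third stood well above the others. This gave a log2 fold change of 0.24 ± 0.0892 (SE, adjusted p = 0.0278, the same edgeR test). The call was lost in 6 of 14 alternatives, among them leaving out siBAP18 replicate 3 (log2 fold change 0.15, adjusted p = 0.114, edgeR) or siCtrl replicate 1, 2 or 3 (adjusted p = 0.0708, 0.0793 and 0.0910, edgeR).

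**Figure D3:**
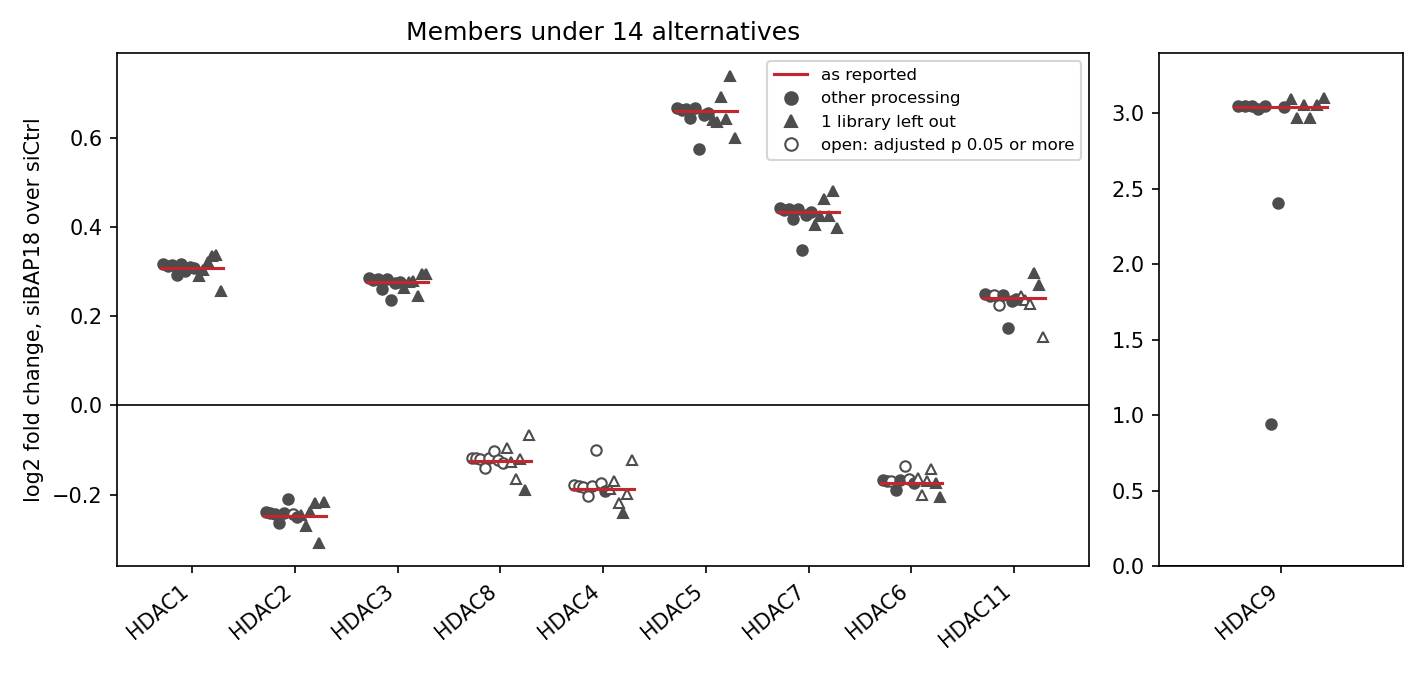
Log2 fold change of each member (y axis) as reported (red lines) and under 14 alternatives, with circles for other processing, triangles for 1 library left out and open symbols where the adjusted p was 0.05 or more. HDAC9, drawn on an axis of its own, lies near 3.04 except on the log2(RPKM + pseudocount) scales, and open symbols gather at HDAC4, HDAC6, HDAC8 and HDAC11, with 1 at HDAC2.

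Summed over the 10 members, the RPKM level was 57.5 ± 0.565 in siCtrl and 68.4 ± 0.417 in siBAP18 (SD, n = 3), with ranges of 56.9 to 57.9 and 67.9 to 68.7. Class I members held 71.0% ± 0.255 of the summed RPKM in siCtrl and 68.0% ± 0.991 in siBAP18. Their summed level still rose, from 40.8 ± 0.409 to 46.5 ± 0.879 RPKM. Class IIa members held 17.6% ± 0.337 and 22.5% ± 1.14, with a summed level of 10.1 ± 0.279 and 15.4 ± 0.702 RPKM. The class IIa share of the sum was thus higher in every siBAP18 library than in any siCtrl library. HDAC6 went from 7.43% to 5.55% of the sum, and HDAC11 was at 3.94% and 3.93%. Within class IIa, HDAC9 made up 1.56%, 1.30% and 1.42% of the summed RPKM in siCtrl and 8.34%, 8.31% and 6.77% in siBAP18.

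**Figure D4:**
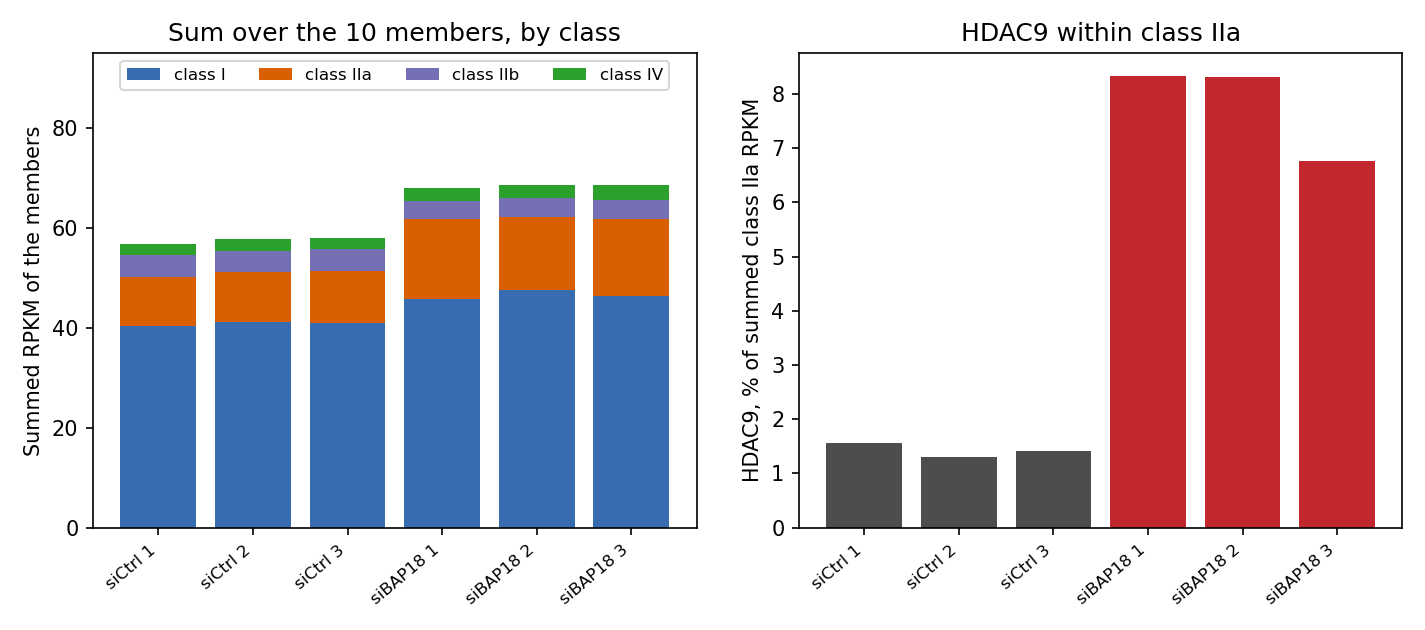
Left, summed RPKM of the members in each library, stacked by class, with all siBAP18 libraries above 67.9 and all siCtrl libraries under 58. Right, HDAC9 as a percent of the summed class IIa RPKM in each library, between 6.77% and 8.34% in siBAP18 and at most 1.56% in siCtrl.

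3 ratios between members were compared by an exact two-sided permutation test over libraries, which cannot go below p = 0.1 with 3 against 3. The log2 ratio of class IIa to class I sums rose by 0.41, from −2.01 ± 0.0314 to −1.60 ± 0.0937. Per kilobase of listed length, HDAC4 was at a mean of 0.226 of the HDAC5 level in siCtrl and 0.126 in siBAP18. The log2 ratio of HDAC4 to HDAC5 differed by −0.85, and that of HDAC2 to HDAC1 by −0.56. Each gave p = 0.1 (exact permutation), also after Benjamini-Hochberg adjustment over the 3 ratios, so none could pass a threshold of 0.05.

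The genes that work with the deacetylases were taken as 10 lists, of which 149 of 150 genes were tested. Of these, 48 rose, 52 fell and 49 were not called, or 32.2% higher and 34.9% lower, beside the 24.5% and 25.1% of all genes and the 33.3% and 33.0% of the more abundant genes. The values below are log2 fold changes from the same edgeR test and its adjusted p.

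Among subunits of the complexes built on HDAC1 and HDAC2, NuRD had 5 of 13 higher and 3 lower, with a median log2 fold change of 0.02. MTA1 (0.47, adjusted p = 2.43e-06) and MBD3 (0.42, adjusted p = 9.08e-06) rose, and the histone chaperone RBBP4 fell by 0.41 (adjusted p = 3.02e-05). SIN3 had 6 of 16 higher and 5 lower, with a median of 0.01. SAP18 rose by 0.49 (adjusted p = 6.61e-07), while the scaffold SIN3A fell by 0.49 (adjusted p = 1.90e-06). The paralogs BRMS1 and BRMS1L moved apart, at 0.58 (adjusted p = 4.89e-07) and −0.69 (adjusted p = 1.38e-08).

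CoREST, which pairs HDAC1 or HDAC2 with a histone demethylase, had 3 of 10 subunits higher and 4 lower, with a median log2 fold change of −0.01. PHF21A rose by 0.52 (adjusted p = 2.10e-06) and ZMYM2 fell by 0.46 (adjusted p = 4.21e-05). The MiDAC, MIER and RERE list had 2 of 7 higher and 2 lower (median 0.07), led by the MiDAC subunit DNTTIP1 at 0.87 (adjusted p = 7.94e-10). NCoR/SMRT, the HDAC3 complex, had 2 of 6 higher and 3 lower (median −0.10). Its scaffold NCOR1 fell by 0.36 (adjusted p = 1.02e-04), CORO2A fell by 0.66 (adjusted p = 1.61e-04), and TBL1X, at 0.18 (adjusted p = 0.0404), lost its call in 10 of 14 alternatives. HDAC3 itself was higher while NCOR1 was lower.

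The class IIa partners, MEF2 factors, 14-3-3 proteins and kinases that phosphorylate class IIa enzymes, had 6 of 24 tested genes higher and 7 lower, with a median log2 fold change of 0.04. MEF2D rose by 0.66 (adjusted p = 1.04e-08) and MEF2A fell by 0.80 (adjusted p = 7.41e-08). The kinases CAMK2D (−0.67, adjusted p = 4.79e-08) and PRKD3 (−0.60, adjusted p = 1.90e-06) fell. CAMK1D (−0.47, adjusted p = 1.10e-05) and SIK1 (−0.20, adjusted p = 0.0207) also fell, while CAMK1 rose by 0.62 (adjusted p = 3.80e-06). PRKD1, PRKD2, SIK2, SIK3, CAMK2G, MARK2 and MARK3 were not called. MEF2C did not pass the filter on low counts.

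Among 18 substrates and partners of HDAC6 and HDAC8, 4 rose and 9 fell, with a median log2 fold change of −0.36. The autophagy receptor SQSTM1 rose by 1.00 (adjusted p = 1.18e-11). SMC3, the HDAC8 substrate, fell by 0.75 (adjusted p = 1.03e-09), and ESCO2, which acetylates SMC3, fell by 1.63 (adjusted p = 2.03e-09).

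The sirtuins, deacetylases that use NAD in place of zinc, had 3 of 7 higher and 2 lower, with a median log2 fold change of 0.20. SIRT7 rose by 0.57 (adjusted p = 1.30e-07) and SIRT1 fell by 0.57 (adjusted p = 4.64e-06). The list of histone acetyltransferases, which oppose the deacetylases, also holds subunits of their complexes. It had 9 of 26 genes higher and 7 lower (median 0.08). KAT5 rose by 0.74 (adjusted p = 8.51e-09) and the subunit BRPF1 by 0.65 (adjusted p = 8.78e-08). NCOA3 fell by 0.53 (adjusted p = 7.37e-07) and NAA40 by 0.68 (adjusted p = 1.10e-06). The acetyl-lysine readers had 8 of 22 higher and 10 lower (median −0.06). The bromodomain genes ATAD2 (−1.24, adjusted p = 4.68e-13) and TRIM24 (−0.93, adjusted p = 2.19e-09) fell, while BRD2 rose by 0.37 (adjusted p = 2.39e-05).

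**Figure D5:**
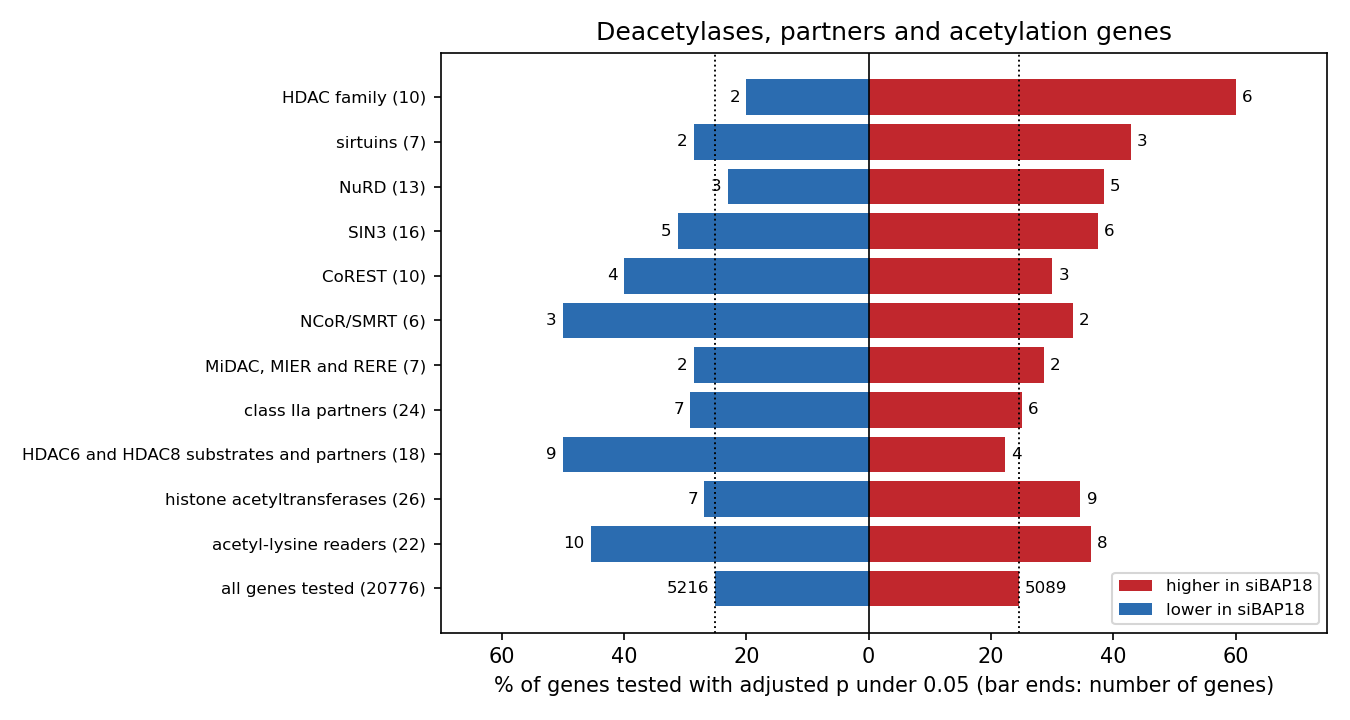
Percent of the genes tested in each list with an adjusted p under 0.05, higher (red, right) and lower (blue, left), with numbers of genes at the bar ends and dotted lines at the share over all genes, 24.5% higher and 25.1% lower. The HDAC members have 6 of 10 genes on the higher side, and the lists of corepressor complexes have genes on both sides.

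A list of genes known to rise when cells are given deacetylase inhibitors had 7 of 8 members higher, none lower and 5 over 2-fold, with a median log2 fold change of 1.39. Of all genes tested, 24.5% were higher and 4.72% were higher over 2-fold. Both inhibitor lists were compiled by hand with earlier results of these data known, so their counts are not a test of deacetylase function. DHRS2, a dehydrogenase, rose by 4.74 (adjusted p = 6.57e-20), the linker histone H1F0 by 1.89 (adjusted p = 1.48e-17), the cell cycle inhibitor CDKN1A by 1.74 (adjusted p = 7.30e-16) and the thioredoxin inhibitor TXNIP by 1.52 (adjusted p = 8.51e-14). GSN, at −0.09, was not called (adjusted p = 0.300). Of 6 genes known to fall with inhibitors, 4 fell and none rose, with a median of −0.65, beside 25.1% of all genes lower. MYC (−0.03, adjusted p = 0.771) and CTPS1 (0.06, adjusted p = 0.475) were not called. BRCA1 (−1.57, adjusted p = 3.23e-13) and CCND1 (−0.79, adjusted p = 8.03e-10) are genes of DNA repair and cell cycle entry, and moved beside the proliferation markers, such as MKI67 at −1.20 (adjusted p = 6.89e-13). In the same libraries 6 members of the HDAC family were called higher and 2 lower, and deacetylase activity was not measured.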

How the data were processed

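Poly(A) RNA of 3 siCtrl and 3 siBAP18 cultures of A549 was sequenced in strand-specific libraries. The authors deposited a table of raw read counts per gene and a table of RPKM values. The deposited RPKM were checked to equal the count divided by listed length and library total, so they carry no further normalization. The aligner, the counting program and the use of strand are not given in the sources used here, and gene ends were compared with GENCODE 29. Library totals were 42094524 to 56548620 counts.

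Counts were tested with edgeR 4.0.16 (filterByExpr, TMM, quasi-likelihood test, siBAP18 against siCtrl) in R 4.3.3, with Benjamini-Hochberg adjustment over all 20776 genes tested. The threshold for a call was an adjusted p of 0.05. CPM of single genes are counts scaled to the TMM-adjusted library size, and the summed CPM of the marker lists are scaled to the library total without TMM. DESeq2 1.42.0, limma 3.58.1 on log2(RPKM + 1) or, with the smaller pseudocount, log2(RPKM + 0.1), for genes averaging 0.5 RPKM or more, other scalings and filters, a replicate block, leaving out each library and a fold threshold were the alternatives. Library comparisons of ratios used an exact permutation test. Of these steps only the edgeR fit was tested on simulated data, in which far fewer genes changed than were called here. Promoters, motifs and seed matches were searched with Python 3.11.15.

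The members and lists were chosen with earlier results of these data known, and lists were compiled by hand from general knowledge. Named genes were the 10 members, C17orf49, genes with exon overlap with a member, and in each list up to 4 called genes of smallest adjusted p, some of which are not reported here. Same-numbered libraries did not deviate together (r = 0.0429, 0.160 and 0.0709 for replicates 1, 2 and 3), so the numbers were not taken as pairs. No 2 libraries of a group were copies, as the chi-square of their counts divided by its degrees of freedom was at least 4.17. With nothing naming separate passages or days, p-values measure the spread between these cultures.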

Additional observations from a re-analysis of the deposited data

How the results depend on the processing

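HDAC1, HDAC3, HDAC5, HDAC7 and HDAC9 kept their direction and call in all 14 alternatives run on single genes. Of the members, 6 rose and 2 fell as reported. With an absolute log2 fold change over 1 required, 1 rose and 0 fell, 3 and 2 of the partner genes rose and fell (48 and 52 as reported), and 981 and 777 of all genes did (5089 and 5216), fewer by construction. The number of members that fell was 1 with the DESeq2 Wald test, 1 with limma on log2(RPKM + 1) and 0 with limma on log2(RPKM + 0.1), and between 1 and 3 with a library left out. The cause was not tested. With a replicate block 6 members rose and 3 fell, HDAC4 becoming called (adjusted p = 0.0400, edgeR), and it changed no other member's call. Ratios between members moved by less than the spread between libraries. The RP5-1057I20.4 log2 fold change, antisense to HDAC7, went from 0.12 to −0.052 (adjusted p = 0.850, edgeR) without siBAP18 replicate 1 and was between −0.052 and 0.22 with any 1 library left out. Without siBAP18 replicate 3, SLC48A1 (−0.23, adjusted p = 0.00841, edgeR) and AC008781.7 (0.34, adjusted p = 0.0309, edgeR), opposite HDAC7 and HDAC3, became called. The SLC48A1 log2 fold change and the AC008781.7 log2 fold change kept their direction. The median log2 fold change of all genes lay between −0.014 and 0.009 under every setting. HDAC9 had only 102 to 139 counts in the siCtrl libraries, which limits the precision of its fold change.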

Other observations

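HDAC10, the remaining zinc-dependent deacetylase gene, is not among the members described. It had 189, 190 and 133 counts in siCtrl and 185, 189 and 132 counts in siBAP18, with a log2 fold change of −0.08 (95% interval −0.38 to 0.22, adjusted p = 0.667, edgeR).

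The nearest genes to HDAC9 on chromosome 7 that passed the filter on low counts were looked at after its value was seen. On the log2 scale SNX13, upstream, differed by −0.53 (adjusted p = 1.44e-05, edgeR) and TWIST1, downstream, by 0.12 (adjusted p = 0.459, edgeR). Farther out, TWISTNB was at −0.46 (adjusted p = 1.89e-04, edgeR) and AC017060.1, with 39 to 47 counts in siCtrl, at 1.22 (adjusted p = 2.81e-05, edgeR), while RP11-507K12.1 at −0.0097 (adjusted p = 0.933, edgeR) and RPL21P75 at 0.15 (adjusted p = 0.135, edgeR) were not called.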
